A study of Xenopus laevis with 30 samples.

Results

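Left and right half-embryos of Xenopus laevis, cut apart at stage 8, were compared gene by gene as twins, that is as the left and the right one of the same number in the labels. They gave 12 of the 30 libraries of the series, that is 6 pairs, with pairs 1, 2 and 3 at stage 10.5 (early gastrula) and pairs 1, 2 and 3 at stage 12 (late gastrula). Each stage has its own table of all listed genes, and twins were paired by number within a stage only. The series concerns regeneration of twin embryos. It also holds 12 libraries of dorsal and ventral half-embryos and 6 of uncut embryos, again 3 per group and stage, which serve here as scales for the twins.

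All embryos were of the Nasco strain, and no mutation or agent is named in the labels. Growth in dilute Marc's Modified Ringers is given for all libraries. Left, right, dorsal and ventral half-embryos were, in addition, cut in full-strength Barth's solution and grown on in a dilution of it. Uncut embryos thus differ from half-embryos in the cut and, as the labels read, in the Barth's solution. The label of each uncut control names the same-numbered half-embryos of all 4 kinds as the ones it serves. The labels do not say how many embryos went into a library, whether the left and right twin of a number came out of the same embryo, or whether the numbers are separate clutches. The p-values therefore cover the variation among these libraries only, part of which may be technical.

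Poly(A) RNA was sequenced without strand information and is given as RPKM, reads per kilobase of gene and per unit of library depth, which allows levels to be compared between genes per length. Behind the values lay 3859245 to 5543715 reads in listed genes per left or right library at stage 10.5 and 2709475 to 4732072 at stage 12, and the median gene had 88 and 58 reads per library. Listed were 16673 genes at stage 10.5 and 15596 genes at stage 12, and all but 1 and 2 of them were tested. No twins were closer than counting noise, since the chi-square per degree of freedom of their reads was 2.15 to 3.12 at stage 10.5 and 2.44 to 5.20 at stage 12, so every library was counted once. Among the 12 left and right twins, left twin 2 of stage 12 stood apart. The numbers of genes called and the mean axis gap are given with and without number 2, whereas list counts over the 3 pairs include it. The dorsal and ventral labels fitted their markers: chordin models reached 124 RPKM or more in dorsal half-embryos and 1.54 RPKM or less in ventral half-embryos, for the copy Xelaev18029538m at both stages.

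In the amphibian embryo the dorsal lip of the gastrula, the Spemann organizer, secretes antagonists of BMP and Wnt signals such as chordin and Dickkopf, while the opposite, ventral side is ruled by BMP and its targets. A cut through the midline shares the organizer between left and right twins, and a cut beside it gives one twin more of the organizer than the other. The left-sided Nodal signals of molecular left-right asymmetry are set up after gastrulation, by cilia on the gastrocoel roof. Germ plasm is a separate store of maternal RNA and protein at the vegetal pole, which the future germ cells inherit.

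Twins of a number were closely alike. By the median absolute difference over all genes, the nearest of the other 14 libraries of the stage was the own twin for all 12 left and right twins. The median gene differed between twins by 0.130, 0.144 and 0.148 on the log2(RPKM + 1) scale in pairs 1, 2 and 3 of stage 10.5, and by 0.201, 0.204 and 0.178 in pairs 1, 2 and 3 of stage 12. Over genes with at least 200 reads in every library that distance was 0.0661 to 0.0754 at stage 10.5 and 0.0965 to 0.114 at stage 12. Left and right twins of different numbers were 0.256 to 0.309 apart at stage 10.5 and 0.278 to 0.330 at stage 12. Half-embryos of the same side but different numbers were 0.257 to 0.307 and 0.261 to 0.332 apart. By this measure the number thus separated libraries more than the side did. By other measures not every twin of stage 12 was nearest to its own twin. Left twin 2 had a Pearson r of 0.971 with ventral half-embryo 2 and right twin 2 one of 0.968 with dorsal half-embryo 2, against 0.963 between the twins, and 3.61% and 4.25% of genes were at least 2-fold apart, against 5.01% between the twins. Over genes with at least 200 reads, left twin 1 was 0.113 from dorsal half-embryo 1 and 0.114 from its twin, and right twin 3 was 0.0931 from ventral half-embryo 3 and 0.0988 from its twin.

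Left and right twins were also closer than dorsal and ventral half-embryos of the same number. Dorsal-ventral distances were 0.161 to 0.169 at stage 10.5 and 0.199 to 0.282 at stage 12. The left-right distance was the smaller in 6 of 6 numbers, with a mean difference, left-right minus dorsal-ventral, of -0.0346 ± 0.0236 (SD, n = 6) and an exact two-sided sign-flip permutation p of 0.0313, the smallest that 6 numbers allow. Each number at each stage was counted as a separate unit. The labels do not say whether a number stands for the same clutch at both stages, and if so the 6 are not independent. With any 1 number left out at both stages, 4 numbers remained and the smallest possible p was 0.125. Twins and the uncut embryo of their number were 0.224 to 0.372 apart at stage 10.5 and 0.254 to 0.367 at stage 12.

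**Figure D1:**
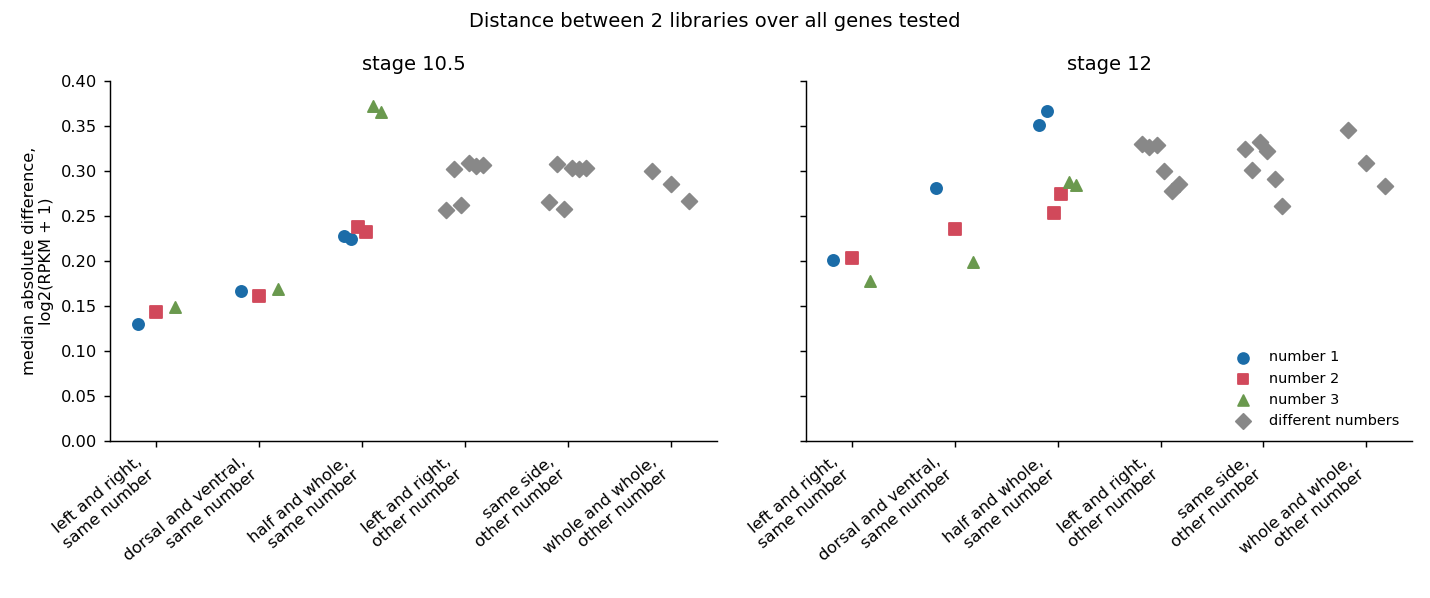
Median absolute difference in log2(RPKM + 1) over the genes tested, for pairs of libraries of stage 10.5 and stage 12; each point is 1 pair of libraries, grouped by what the pair shares. Twins lie at 0.130 to 0.148 and at 0.178 to 0.204, below left-right pairs of other numbers.

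No gene was called different between left and right twins at either stage. In a fit by limma over all 15 libraries of a stage with the number as a block, 0 of 16672 genes (0%) passed a Benjamini-Hochberg adjusted p of 0.05 at stage 10.5 and 0 of 15594 (0%) at stage 12. At an unadjusted p under 0.05 there were 330 genes (1.98%) and 611 genes (3.92%), and limma voom on the reads recovered from the RPKM values also called 0 and 0 genes, with 302 and 540 at an unadjusted p under 0.05. Set beside this, the dorsal against ventral contrast of the same fits called 362 genes (2.17%) at stage 10.5, 189 of them higher and 173 lower in dorsal half-embryos, and 898 genes (5.76%) at stage 12, of which 452 were higher and 446 lower. Without the block, dorsal-ventral counts were 165 (0.99%) and 587 (3.76%), and left-right counts stayed 0 and 0. The spread of the main fit comes from all 15 libraries, uncut embryos included. In a fit of the 6 left and right libraries of a stage alone, left-right calls were 0 and 0 too. There 706 (4.2%) and 904 (5.8%) genes had an unadjusted p under 0.05. Leaving out number 1 from the main fit gave 101 and 253 dorsal-ventral calls, leaving out number 2 gave 300 and 650, and leaving out number 3 gave 56 and 210. The left-right difference changed between stages in 0 of 14947 genes (0%), with 429 at an unadjusted p under 0.05; voom was not run for that contrast.

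Few genes kept 1 direction and a large size in all 3 pairs. All 3 pairs had the same sign in 23.6% of genes at stage 10.5, 1877 higher and 2064 lower in left twins, and in 27.5% at stage 12, 1855 higher and 2431 lower. Signs drawn at random would agree in all 3 pairs in a share close to these. At least 2-fold in the same direction in all 3 pairs were 0 genes at stage 10.5 and 5 at stage 12, 2 higher and 3 lower. UCK1 (Xelaev18004080m), a uridine-cytidine kinase by its human symbol, had the smallest p among genes with a symbol at stage 10.5. It stood at 9.27, 8.61 and 6.34 RPKM in left twins 1, 2 and 3, against 2.79, 3.09 and 3.2 RPKM in right twins 1, 2 and 3. The groups did not overlap, the log2 difference was 1.16 (SE 0.170), and the gene did not pass at an adjusted p of 0.160 by limma. It rested on only 14, 11 and 8 reads in left twins, against 5, 5 and 4 in right twins.

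At stage 12 SPTSSB (Xelaev18029735m), a small subunit of serine palmitoyltransferase by its human symbol, was listed at 0 in left twins 1, 2 and 3, against 2.19, 2.43 and 4.18 RPKM in right twins 1, 2 and 3, with an adjusted p of 1.00 by limma. Those right values were 2, 2 and 6 reads. DCXR (MGC79752.L) had a log2 difference of -1.19 (SE 0.232), and crb3.L, a Crumbs-family polarity protein, one of 0.84 (SE 0.178). None of these passed, as neither did isca2-like.L at stage 10.5, with 0.46, 1.09 and 1.11 RPKM in left twins, against 1.56, 3.90 and 5.04 RPKM in right twins. The other genes with a symbol among the 5 smallest p in each direction, 15 over both stages, had log2 differences between -1.19 and 1.1, and none passed.

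Along the dorsal-ventral axis, the twins of 2 of the 6 pairs stood apart, to opposite sides. Every library was placed on a scale on which the mean ventral half-embryo of its stage is 0 and the mean dorsal half-embryo is 100. The scale uses 140 dorsal and 111 ventral genes at stage 10.5, and 355 and 357 at stage 12. All were called, and at least 2-fold apart, between dorsal and ventral half-embryos in a fit that held no left or right library. A pair counted as unequal where its gap was wider than the range of the 3 uncut embryos and both gene sets pointed the same way. Uncut embryos lay at 57.3 to 68.5 at stage 10.5, a range of 11.2, and at 65.8 to 76.1 at stage 12, a range of 10.3. Ventral half-embryos spread more widely, from -11.79 to 13.25 at stage 10.5 and from -12.76 to 9.05 at stage 12. Dorsal half-embryos spread less, from 95.89 to 103 and from 96.75 to 105.7.

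In pair 2 of stage 12 the left twin lay at 27.5 and the right twin at 87.5, a gap of -60.0 that dorsal genes (-61.1) and ventral genes (-58.6) shared, so the left twin was the more ventral one. In pair 2 of stage 10.5 the left twin lay at 81.5 and the right twin at 46.3, a gap of 35.2 to which dorsal genes gave 47.0 and ventral genes 20.0, so there the right twin was the more ventral one. The gaps of the other 4 pairs were no wider than the range of the uncut embryos. Pair 1 of stage 10.5 was at 63.1 in the left and 70.0 in the right twin, and pair 3 at 71.4 in the left and 60.7 in the right twin, whose gap of 10.8 was just inside the range of 11.2. Dorsal genes (7.16) and ventral genes (15.4) pointed the same way in this pair 3. On linear RPKM, where the range of the uncut embryos was 8.05, pair 1 (gap -9.06) and pair 3 (gap 11.3) of stage 10.5 passed as unequal too. Pair 3 also did without number 1 (9.08, range 0.718) and without number 2 (10.7, range 7.63), where only 2 uncut embryos set the range. Pair 1 of stage 12 was at 78.2 in the left and 74.8 in the right twin, and pair 3 at 75.5 in the left and 74.6 in the right twin.

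The mean position of the twins, which on a log scale need not be that of their pooled RNA, was set beside the uncut embryo of their number. It was 63.9 in the unequal pair of stage 10.5, where the uncut embryo was at 59.1, and 57.5 in that of stage 12, where the uncut embryo was at 71.9. In the pairs not counted as unequal it was 66.5 and 66.1 at stage 10.5, beside 68.5 and 57.3 in the uncut embryos, and 76.5 and 75.1 at stage 12, beside 65.8 and 76.1. Over the pairs no side was shown to be the more dorsal one: the mean left minus right gap was -2.77 ± 31.5 (SD, n = 6; exact two-sided sign-flip permutation p = 0.875), and 2.94 without number 2. Each number at each stage was again counted as a separate unit. The labels do not record the plane of the cut, and what made the 2 pairs unequal was not tested.

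**Figure D2:**
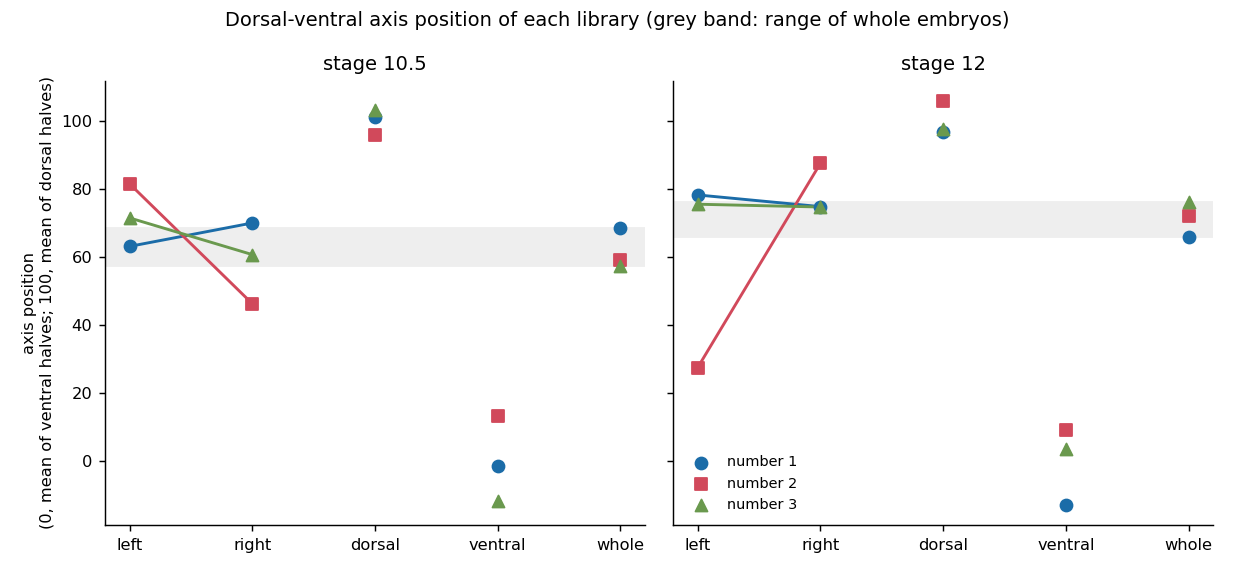
Position of each library on the dorsal-ventral axis (0, mean of the ventral half-embryos; 100, mean of the dorsal half-embryos of the stage), for stage 10.5 and stage 12; lines join half-embryos of 1 number. The twins of number 2 are at 81.5 (left) and 46.3 (right) at stage 10.5 and at 27.5 (left) and 87.5 (right) at stage 12.

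Of the gene lists, the organizer list had the widest median gaps in pair 2. Many of its members are also dorsal axis genes, such as chordin models and gsc, cer1, admp and dkk1 copies at stage 10.5. Other lists below share genes with the axis too, such as irx1.L. Counts of such lists in pair 2 are therefore no separate support for the inequality. As a background for the counts that follow, 49.6%, 47.3% and 49.3% of all genes were higher in the left twin in pairs 1, 2 and 3 of stage 10.5, and 50.2%, 52.5% and 50.4% were lower. At stage 12, 49.4%, 47.1% and 46.1% were higher and 50.2%, 52.6% and 53.6% lower. In bulk RNA of this kind, fewer cells of a type and less RNA per cell cannot be told apart. At stage 12 all 42 organizer genes were lower in left twin 2 than in right twin 2, and 36 of them at least 2-fold, where 2.58% of all genes were at least 2-fold lower. Their median log2 difference was -2.54, against -0.019 over all genes. At stage 10.5 all 39 organizer genes were higher in left twin 2 than in right twin 2, and 27 of them at least 2-fold, where 1.07% of all genes were; the median was 1.51, against -0.013 over all genes. None of these genes was called over the 3 pairs. At stage 12, 8 of 42 had an unadjusted p under 0.05, where 3.92% of all genes did. At stage 10.5, 2 of 39 did, beside 1.98% of all genes.

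Chordin, the BMP antagonist of the organizer, is given for the model Xelaev18029538m. At stage 12 it was at 134, 7.34 and 113 RPKM in left twins 1, 2 and 3, against 107, 152 and 131 RPKM in right twins 1, 2 and 3. Left twin 2 alone fell far below the range of 108 to 159 RPKM in uncut embryos, and was still above the 0 to 1.54 RPKM of ventral half-embryos. At stage 10.5 it was at 54.2, 121 and 83.8 RPKM in left twins, against 73.4, 28.5 and 83.1 RPKM in right twins. The models Xelaev18027420m and Xelaev18027421m, which share the human symbol CHRD and may share reads with it, were at 8.63 and 4.77 RPKM in left twin 2 of stage 12, against 174 and 159 RPKM in right twin 2. At stage 10.5 right twin 2 had the least chordin of the 6 twins, while left twin 2 came close to the 124 to 145 RPKM of dorsal half-embryos.

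The homeobox gene goosecoid, in its copy gsc.L, was at 8.02, 0 and 8.84 RPKM in left twins 1, 2 and 3 of stage 12, against 11.5, 9.04 and 12.1 RPKM in right twins, and was listed at 0 in all ventral half-embryos too. At stage 10.5 gsc.L was at 22.8, 37.2 and 22.6 RPKM in left twins, against 38.8, 9.44 and 20.2 RPKM in right twins. The BMP-like ligand admp, which is made in the organizer, was at 55.0, 0.722 and 50.7 RPKM in left twins of stage 12 for admp.L, against 53.5, 53.7 and 46.9 RPKM in right twins. The copy admp.S was at 45.6 RPKM in left twin 2 of stage 10.5, against 8.66 RPKM in right twin 2. In both genes only the twins of number 2 were far apart at stage 12.

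Genes of secreted antagonists and of anterior endoderm are given next. The Wnt antagonist dkk1.S was at 13.5, 1.29 and 16.3 RPKM in left twins of stage 12, against 16.4, 35.9 and 20.4 RPKM in right twins, and in pair 2 of stage 10.5 at 31.2 RPKM in the left and 6.32 RPKM in the right twin. SFRP5 (Xelaev18024021m), a secreted Frizzled-related protein by its human symbol, was at 26.3 RPKM in left twin 2 of stage 10.5, against 1.12 RPKM in right twin 2, and was listed at 0 in left twin 2 of stage 12, against 21.3 RPKM in right twin 2. Not every dorsal gene of this kind was apart in pair 2, and the Frizzled-related genes sfrp2.S at stage 10.5 and sfrp1.L at stage 12 had log2 differences of -0.025 and -0.00074. The head inducer cer1.S, which binds Nodal, BMP and Wnt ligands, was at 103, 221 and 193 RPKM in left twins of stage 10.5, against 160, 65.9 and 192 RPKM in right twins. The anterior endoderm gene hhex.S was at 5.02, 23.2 and 5.90 RPKM in left twins, against 11.8, 2.80 and 5.21 RPKM in right twins.

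**Figure D3:**
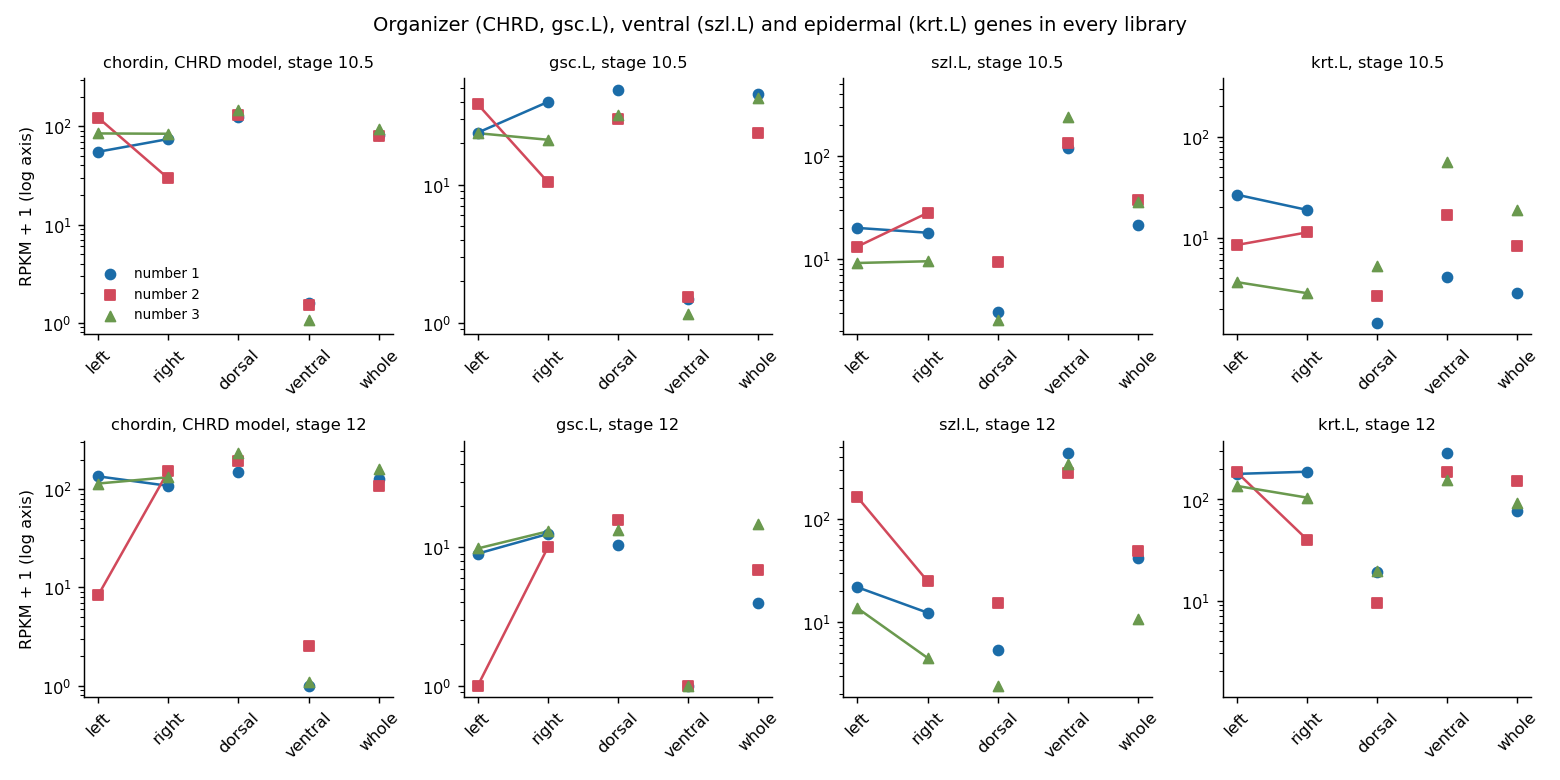
RPKM + 1 on a log axis in every library, of chordin (model Xelaev18029538m), gsc.L, szl.L and krt.L at stage 10.5 and stage 12, with twins of a number joined. Chordin in pair 2 of stage 12 is at 7.34 RPKM in the left and 152 RPKM in the right twin, and szl.L there at 161 RPKM in the left and 23.9 RPKM in the right twin.

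In pair 2 most ventral genes lay on the opposite side to organizer genes, by more at stage 12. The gene szl.L encodes sizzled, a BMP target that blocks the proteases that cleave chordin. It was at 20.7, 161 and 12.6 RPKM in left twins 1, 2 and 3 of stage 12, against 11.3, 23.9 and 3.48 RPKM in right twins. Left twin 2 stood between the dorsal half-embryos (1.42 to 14.4 RPKM) and the ventral half-embryos (279 to 436 RPKM), far above the 9.78 to 48.0 RPKM of uncut embryos. At stage 10.5 szl.L was at 19.1, 12.3 and 8.20 RPKM in left twins, against 17.1, 27.2 and 8.56 RPKM in right twins. The gap of pair 2 was smaller there and ran the other way, with the right twin, the more ventral one at that stage, the higher.

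Of 35 genes of the ventral BMP list, 24 were higher and 11 lower in left twin 2 of stage 12, with a median of 0.67. At least 2-fold, 14 were higher and 1 lower, where 2.42% and 2.58% of all genes were. In pairs 1 and 3 of that stage 22 and 26 of the 35 were higher in the left twin, with medians of 0.16 and 0.10. The BMP pseudoreceptor bambi.L was at 69.3, 139 and 38.5 RPKM in left twins, against 52.0, 55.7 and 30.3 RPKM in right twins. The homeobox gene msx1.S, a BMP target, was at 41.8, 96.9 and 46.7 RPKM in left twins, against 61.1, 25.3 and 41.6 RPKM in right twins. VENTX models, homologs of the ventral homeobox repressors of Xenopus, differed less: Xelaev18036903m was at 190, 267 and 177 RPKM in left twins, against 151, 164 and 146 RPKM in right twins. At stage 10.5 the list had 8 of 32 genes higher and 24 lower in left twin 2, where 52.5% of all genes were lower, with a median of -0.21. Only 2 were at least 2-fold lower and 1 at least 2-fold higher, where 0.714% and 1.07% of all genes were. In pairs 1 and 3 of that stage 20 and 25 of the 32 were lower in the left twin, with medians of -0.033 and -0.14.

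Genes of ectoderm lists also differed in level between the twins of pair 2 of stage 12. Of 39 epidermal genes, 30 were higher in the left twin, with a median of 1.00. At least 2-fold, 19 were higher and 2 lower, where 2.42% and 2.58% of all genes were. The epidermal keratin krt.L was at 178, 184 and 135 RPKM in left twins, against 187, 39.1 and 103 RPKM in right twins, so right twin 2 was the low one. The homeobox gene dlx3.S was at 26.8, 45.8 and 19.6 RPKM in left twins, against 19.3, 12.6 and 12.7 RPKM in right twins. The forkhead gene foxi1.S, which acts in epidermal ionocytes, was at 3.61, 15.1 and 5.08 RPKM in left twins, against 2.49, 0.791 and 3.4 RPKM in right twins.

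Of 14 genes of the multiciliated cell list, 12 were higher in left twin 2, with a median of 1.12. At least 2-fold higher were 8, where 2.42% of all genes were. MCIDAS (Xelaev18008287m), a switch of the multiciliated programme, was at 2.17, 10.6 and 1.6 RPKM in left twins, against 1.71, 0.63 and 0.91 RPKM in right twins. Neural plate genes ran the other way: 26 of 36 were lower in left twin 2, with a median of -0.76. At least 2-fold lower were 14, where 2.58% of all genes were. The neural precursor gene sox2.1 was at 56.1, 24.0 and 48.8 RPKM in left twins, against 49.6, 68.3 and 38.4 RPKM in right twins. The homeobox gene irx1.L was at 23.1, 3.09 and 28.9 RPKM in left twins, against 21.1, 32.9 and 23.5 RPKM in right twins.

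In pairs 1 and 3 of stage 12 the medians were 0.060 and 0.075 for epidermal, 0.18 and 0.057 for multiciliated and -0.17 and 0.10 for neural plate genes. At stage 10.5 the ectoderm lists had smaller medians in pair 2 than at stage 12. Neural plate genes were 17 higher and 15 lower in left twin 2, with a median of 0.045. Epidermal genes were 7 higher and 26 lower, with a median of -0.44. Of those 33, 3 were at least 2-fold lower, where 0.714% of all genes were. Of 28 endoderm genes, 27 were higher in left twin 2, with a median of 0.69. At least 2-fold higher were 8, where 1.07% of all genes were. The endodermal GATA factor gata4.L was at 10.3, 34.2 and 10.2 RPKM in left twins, against 19.2, 11.2 and 13.5 RPKM in right twins, and left twin 2 was again the high one. In pair 2 of stage 12 endoderm genes were 10 higher and 12 lower, with a median of -0.033.

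Across the genes of the axis, the difference between twins followed the difference between dorsal and ventral half-embryos in the unequal pairs. In pair 2 of stage 12, 332 of 355 dorsal genes were lower in the left twin and 338 of 357 ventral genes were higher, and the correlation across these genes with the dorsal minus ventral difference was -0.909, with a slope of -0.62. In pair 2 of stage 10.5, 125 of 140 dorsal genes were higher in the left twin and 86 of 111 ventral genes were lower, with a correlation of 0.771 and a slope of 0.35. In the other pairs the correlation was -0.333 and 0.408 at stage 10.5, in pairs 1 and 3, and 0.118 and 0.0371 at stage 12. These correlations are across genes, which are not independent replicates. The same genes set the gaps by which the 2 pairs were counted as unequal. Their counts, correlations and slopes describe those gaps again and are no separate support for them.

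Outside the axis genes, the share of genes at least 2-fold apart in pair 2 lay between those of the other pairs at stage 10.5. At stage 12 it was the highest. The axis genes, called and at least 2-fold apart between dorsal and ventral half-embryos, were taken out first. Small shares among the remaining genes were thus partly set in advance, and no conclusion about the axis is drawn from them. Among the other 14882 genes of stage 12, 2.93% were at least 2-fold apart in pair 2, against 2.78% in pair 1 and 1.89% in pair 3. Among the axis genes, by which pair 2 was counted as unequal at both stages, those shares were 48.5%, 3.37% and 6.6%. Among the other 16421 genes of stage 10.5, 1.38% were at least 2-fold apart in pair 2, against 1.11% in pair 1 and 1.76% in pair 3, while among the axis genes the shares were 28.3%, 3.98% and 3.98%. Over all genes, those at least 2-fold apart numbered 192 (1.15%), 298 (1.79%) and 299 (1.79%) in pairs 1, 2 and 3 of stage 10.5, and 437 (2.80%), 781 (5.01%) and 328 (2.1%) at stage 12. Axis genes made up 5.21%, 23.8% and 3.34% of them at stage 10.5, and 5.49%, 44.2% and 14.3% at stage 12.

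**Figure D4:**
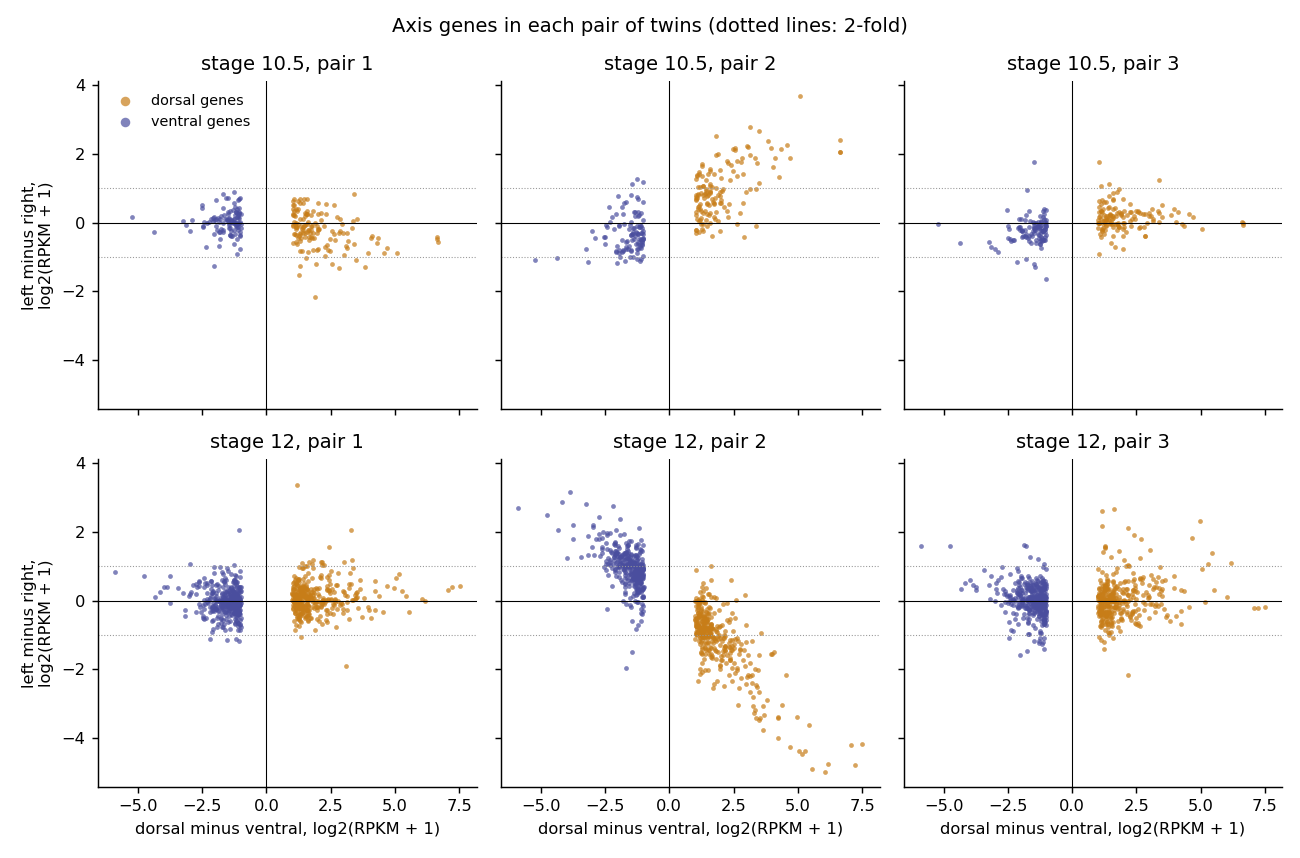
Left minus right difference of each axis gene, in log2(RPKM + 1), against its dorsal minus ventral difference on the same scale, for each of the 6 pairs (251 genes at stage 10.5, 712 at stage 12). The points tilt upward in pair 2 of stage 10.5 (slope 0.35) and downward in pair 2 of stage 12 (slope -0.62).

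Pairs not counted as unequal still differed in smaller groups of genes. In pair 1 of stage 10.5, 33 of 39 organizer genes were lower in the left twin, with a median of -0.46, but only 1 was at least 2-fold lower and 1 at least 2-fold higher, where 0.666% and 0.486% of all genes were. Chordin, gsc.L, cer1.S and hhex.S above were all lower in left twin 1. Of 28 endoderm genes there, 23 were lower in left twin 1, with a median of -0.30. In pair 3 of stage 10.5 the organizer list was 28 higher and 11 lower in the left twin with a median of 0.11, and none was 2-fold higher or lower, where 0.816% and 0.978% of all genes were.

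Pair 3 of stage 12 was closest on the axis, with a gap of 0.819, though dorsal genes (2.81) and ventral genes (-1.56) pointed opposite ways. The next 4 genes were picked after their values were seen, for being higher in its left twin. The head homeobox gene crx.L was at 134, 2.14 and 91.2 RPKM in left twins 1, 2 and 3, against 135, 84.5 and 42.4 RPKM in right twins. OTX2 (Xelaev18041108m) was at 54.5, 1.62 and 32.0 RPKM in left twins, against 40.3, 49.8 and 8.27 RPKM in right twins. HES1 (Xelaev18019219m), a Notch-pathway repressor by its human symbol, was at 41.5, 0.974 and 21.1 RPKM in left twins, against 32.0, 19.7 and 3.45 RPKM in right twins. HESX1 (Xelaev18001776m), an anterior neural repressor, was at 5.31 RPKM in left twin 3 and listed at 0 in right twin 3. Of the 42 organizer genes, 5 were at least 2-fold higher in left twin 3, where 0.904% of all genes were, and none was lower to that degree. Other organizer genes were lower in left twin 3 than in right twin 3, among them chordin and gsc.L, and cer1.S (log2 difference -0.46), cer1.L (-0.24), dkk1.L (-0.60), dkk1.S (-0.31) and frzb.L (-0.15).

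In the same pair, 43 of 52 genes of the marginal zone mesoderm list were lower in the left twin, with a median of -0.26, and 20 of 22 endoderm genes, with a median of -0.56, against -0.022 over all genes. Pair 1 of stage 12 had 37 of 52 mesoderm genes and 15 of 22 endoderm genes lower in the left twin, with medians of -0.14 and -0.31, and 29 of 42 organizer genes higher, with a median of 0.24. In pair 2, in contrast, 38 of the 52 mesoderm genes were higher in the left twin, with a median of 0.41. In pair 3 only 2 of the endoderm genes were at least 2-fold lower, where 1.2% of all genes were. The endodermal homeobox gene mixer.L was at 36.7 RPKM in left twin 3, against 78.9 RPKM in right twin 3. The endoderm regulator sox17a.L was at 68.1 RPKM in left twin 3, against 106 RPKM in right twin 3. Ribosomal protein genes were higher in the left twin in 103, 102 and 140 of 151 cases in pairs 1, 2 and 3 of stage 12, with medians of 0.074, 0.065 and 0.27. Higher in all 3 pairs were 75 of the 151, where 11.9% of all genes were. None was called, and 18 had an unadjusted p under 0.05, where 3.92% of all genes did. At stage 10.5 they were higher in 96, 77 and 50 of 151 cases. The 4 mitochondrially encoded genes were all higher in left twin 1 of stage 12 (median 0.14), all lower in left twin 2 (median -0.33), and lower in 3 of 4 cases in left twin 3 (median -0.31). Their part in the differences between those twins was not tested.

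Some germ plasm RNAs were far apart between twins at stage 10.5, in the pairs not counted as unequal. Lower in the left twin were 16, 7 and 11 of 18 genes in pairs 1, 2 and 3, where 50.2%, 52.5% and 50.4% of all genes were, so the count in pair 3 was near that of all genes. Of 18 measured genes of the list, 6 were at least 2-fold lower in left twin 1 and 3 were in left twin 3, where 0.666% and 0.978% of all genes were, and none was 2-fold apart in pair 2. The medians were -0.39, 0.13 and -0.20 in pairs 1, 2 and 3. No gene of the list passed over the 3 pairs, and 5 had an unadjusted p under 0.05, where 1.98% of all genes did.

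The scaffold gene grip2.L, whose RNA sits in the Xenopus germ plasm, was at 0.267, 1.97 and 2.04 RPKM in left twins 1, 2 and 3 of stage 10.5, against 39.4, 0.843 and 11 RPKM in right twins. The helicase gene ddx25.L was at 1.77, 3.37 and 3.09 RPKM in left twins, against 42.5, 2.03 and 34.8 RPKM in right twins. The RNA-binding gene dazl.L was at 4.31, 4.78 and 10.4 RPKM in left twins, against 18.3, 3.3 and 30.6 RPKM in right twins. Right twins 1 and 3 were thus the high ones, and both twins of number 2 were low. Uncut embryos were at 7.56 to 13.9 RPKM for grip2.L and 12.4 to 34.5 RPKM for ddx25.L, above the dorsal half-embryos (1.94 to 4.29 and 2.57 to 5.12 RPKM) and the ventral half-embryos (2.43 to 3.63 and 3.37 to 8.71 RPKM).

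Other members of the list followed with smaller gaps or none. The reticulon gene rtn3.S was at 5.17, 6.61 and 6.53 RPKM in left twins, against 21.5, 7.31 and 11.3 RPKM in right twins. The germ cell gene dnd1.L was at 2.01, 2.25 and 2.91 RPKM in left twins, against 5.33, 3.36 and 3.96 RPKM in right twins. The vasa homolog ddx4.L was close to equal, with 70.5, 58.3 and 75.5 RPKM in left twins, against 77.2, 62.1 and 70.9 RPKM in right twins. Summed over the list, left twins had 361, 388 and 373 RPKM, against 587, 338 and 464 RPKM in right twins, and uncut embryos had 478 to 772 RPKM.

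Without number 2, 3 of 16580 genes passed at stage 10.5, all lower in left twins, and ddx25.L was one of them. Its log2 difference was then -3.55 (SE 0.318, adjusted p = 0.0268 by limma), against -2.19 (SE 0.735, adjusted p of 1) with all pairs. The other 2, LOC100498538-like.L and LOC779566.L, carry no symbol. The first was at 2.78, 4.17 and 1.09 RPKM in left twins, against 81.2, 2.95 and 25.6 RPKM in right twins. The second was at 0.758, 0.985 and 1.18 RPKM in left twins, against 22.6, 0.354 and 14.2 RPKM in right twins. Both thus had the high right twins 1 and 3 and the low pair 2 of the germ plasm genes.

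At stage 12 the leading germ plasm genes were at 6.52 RPKM or less in all 6 twins. There grip2.L was at 0.575, 0.153 and 1.36 RPKM in left twins, against 0.670, 4.12 and 2.17 RPKM in right twins, and ddx25.L at 1.28, 1.14 and 3.94 RPKM in left twins, against 1.99, 6.52 and 2.54 RPKM in right twins. In pair 2, 14 of 16 genes of the list were lower in the left twin and 4 at least 2-fold, where 2.58% of all genes were, with a median of -0.56. In pairs 1 and 3, 12 of 16 each were lower in the left twin, none at least 2-fold, with medians of -0.18 and -0.21. Lower in all 3 pairs were 7 of 16 genes, and 15.6% of all genes were. No mean difference was above 0 and none of the 16 was called. Of them, 1 had an unadjusted p under 0.05, where 3.92% of all genes did. With number 2 left out, 3 of 14947 genes changed their left-right difference between stages, each with an adjusted p of 0.0300 by limma on the log2 scale. They were ddx25.L by 3.60 (SE 0.442), LOC779566.L by 3.18 (SE 0.423) and the Dickkopf-related dkkx.L by 4.09 (SE 0.547). In pairs 1, 2 and 3, dkkx.L differed by -1.51, 1.52 and -1.11 at stage 10.5, and by 3.38, -2.15 and 2.19 at stage 12. The left-out pair 2 thus ran the other way at both stages for dkkx.L. All 3 calls rest on 2 pairs per stage, and with all numbers no gene was called.

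**Figure D5:**
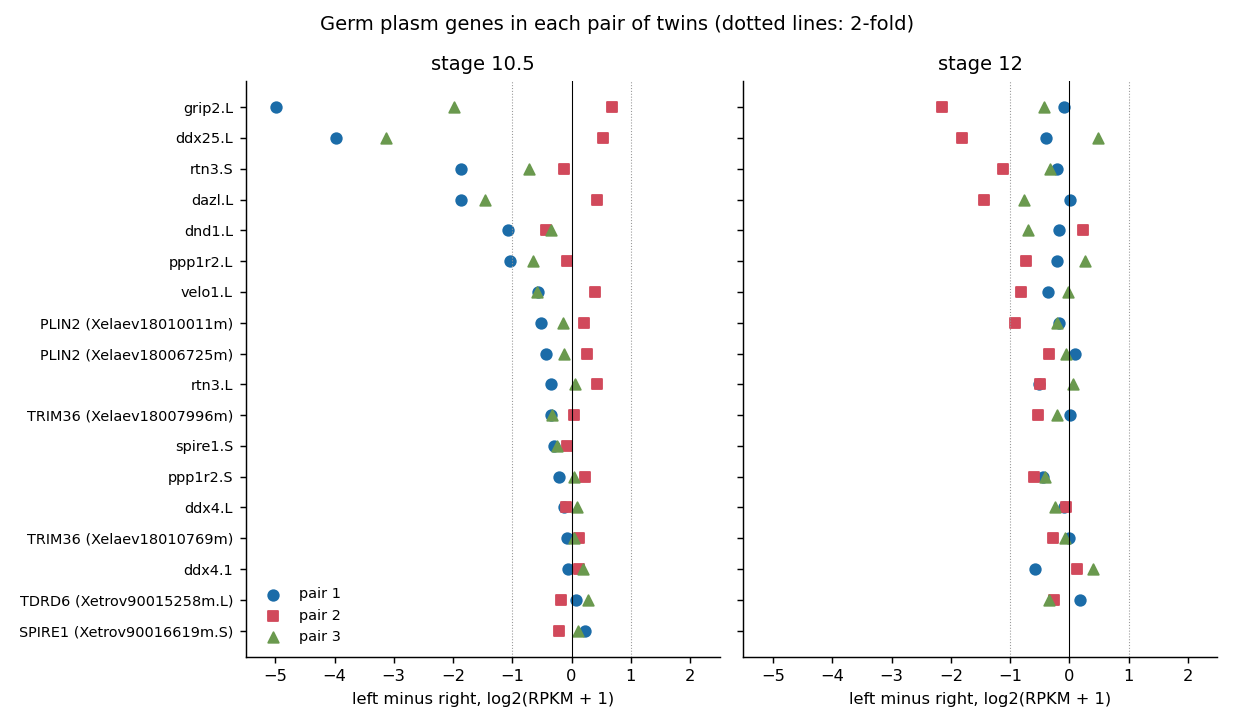
Left minus right difference, in log2(RPKM + 1), of each measured germ plasm gene in pairs 1, 2 and 3, at stage 10.5 (18 genes) and stage 12 (16 genes); dotted lines mark 2-fold. At stage 10.5 grip2.L is at -4.99, 0.69 and -1.98 in pairs 1, 2 and 3, and ddx25.L at -3.98, 0.53 and -3.13.

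Genes of left-right asymmetry were not called on either side at these stages. None of 31 genes at stage 10.5 and none of 25 at stage 12 was called. At each stage 1 had an unadjusted p under 0.05, where 1.98% and 3.92% of all genes did. All 3 pairs were higher in left twins for 3 of 31 genes and lower for 0 at stage 10.5, where 11.3% of all genes were higher and 12.4% lower. At stage 12 they were higher for 3 of 25 and lower for 6, where 11.9% of all genes were higher and 15.6% lower. The list shares nodal with the endoderm list, lefty with the organizer list and foxj1 with the multiciliated list. The ligand gene nodal.L was at 3.09, 3.65 and 2.96 RPKM in left twins of stage 10.5, against 3.53, 0.924 and 3.13 RPKM in right twins. At stage 12 it was at 11.2, 0 and 6.45 RPKM in left twins, against 5.34, 9.74 and 5.46 RPKM in right twins. At both stages the more ventral twin of number 2 was the lowest of the 6, and the sides overlapped.

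The Nodal antagonist lefty.L was at 30.4, 30.6 and 15.4 RPKM in left twins of stage 10.5, against 32.0, 20.1 and 18.4 RPKM in right twins. The Nodal inhibitor dand5-like.1 was at 17.4, 11.7 and 9.49 RPKM in left twins, against 17.1, 9.51 and 10.2 RPKM in right twins. The ciliary regulator foxj1.L was at 2.26, 11.1 and 6.43 RPKM in left twins of stage 12, against 3.59, 5.37 and 6.31 RPKM in right twins. The ligand gdf3.1 was at 61.8, 70.8 and 85.4 RPKM in left twins of stage 12, against 60.5, 73.4 and 103 RPKM in right twins. In each of these genes the ranges of the sides overlapped.

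The largest mean twin differences among genes with a symbol and at least 5 RPKM included a cluster of models with neighbouring numbers and human symbols IRG1 and PHYHD1. IRG1 (Xelaev18038702m), an itaconate-making enzyme by its human symbol, was at 189, 352 and 37.2 RPKM in left twins of stage 10.5, against 75.7, 234 and 797 RPKM in right twins. Right twin 3 was the highest and left twin 3 the lowest, and the ranges of the sides overlapped. PHYHD1 (Xelaev18038704m) was at 175, 430 and 68.9 RPKM in left twins, against 127, 253 and 636 RPKM in right twins. Such models may be near-identical copies between which reads can be split, so they do not count as separate genes here. At stage 12 IRG1 (Xelaev18038707m) was at 42.5, 81.1 and 143 RPKM in left twins, against 76.0, 253 and 548 RPKM in right twins. In uncut embryos it was at 2.46 to 11.5 RPKM, below every half-embryo of the stage.

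The immediate early gene junb.L, which wounding induces, was at 10.4, 19.8 and 1.54 RPKM in left twins of stage 10.5, against 4.52, 6.75 and 8.05 RPKM in right twins. Of 41 wound and immediate early genes there, 4 were at least 2-fold higher in left twin 2, where 1.07% of all genes were, and 1 at least 2-fold lower in left twin 3, where 0.978% were. At stage 12, 39 of 44 were lower in left twin 3, 2 of them at least 2-fold, where 1.2% of all genes were, with a median of -0.27. In pair 2, 29 of the 44 were lower in left twin 2, 5 of them at least 2-fold, where 2.58% of all genes were. Of the genes far apart in a single pair, ndufa1.S was at 9.46 RPKM in the left and 0.728 RPKM in the right twin of pair 3 of stage 12, and at 2.26 RPKM in the left and 6.35 RPKM in the right twin of pair 2.

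Lists of cell state are given last. Cell cycle genes had medians of 0.051, 0.011 and 0.0027 in pairs 1, 2 and 3 of stage 10.5 and of -0.053, -0.19 and -0.020 at stage 12. In left twin 2 of stage 12, 46 of 59 were lower, 3 of them at least 2-fold, where 2.58% of all genes were. Heat shock genes had medians between -0.059 and 0.029 over all 6 pairs. Hypoxia and glycolysis genes lay between -0.054 and 0.12. Genes of maternal clearance had medians of 0.32, -0.32 and 0.068 at stage 12. Of 99 genes higher by 2 or more on the log2(RPKM + 1) scale in uncut embryos of stage 12 than in those of stage 10.5, 64 were higher in left twin 2 of stage 12, with a median of 0.65. At least 2-fold, 34 were higher there and 6 lower, where 2.42% and 2.58% of all genes were. In pairs 1 and 3 of stage 12 the medians were -0.089 and 0.013. The 149 genes lower by as much at stage 12 had medians of -0.057, -0.096 and -0.21 in pairs 1, 2 and 3 of stage 12.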

How the data were processed

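Each stage has 1 deposited table of RPKM values, which hold gene models of the JGI9.1 laevis annotation, human symbols from a protein search, and include only genes averaging above 1 RPKM, per the file headers. TopHat2 2.09 and DESeq are named in the submitters' processing notes, and the tool that made the counts is not named in the sources used here. No column of per-sample values lacked a sample. The gene sequences and coordinates were not used here, since the reference at hand is of another build.

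Groups and numbers came from the titles. RPKM values were taken as log2(RPKM + 1), genes with 1 RPKM or more in at least 3 libraries of a stage were kept, and limma 3.58.1 with its trend option (R 4.3.3) was fitted to all 15 libraries with the replicate number as a block, two-sided, with Benjamini-Hochberg adjustment at 0.05. Since the values are RPKM and not counts, this replaced a count test. Where every value of a row was a whole multiple of a common step, as in 100% of genes, whole reads were recovered and limma voom was run on them as an alternative. Distances, axis positions and exact sign-flip tests used Python 3.11.15 with numpy 2.4.6, scipy 1.17.1 and pandas 2.3.3.

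The pairing comes from the titles and the control labels. Deviations from group means correlated at 0.414 or more between same-numbered libraries of stage 10.5 and at 0.274 or more at stage 12, over 30 pairs each. Between other numbers they correlated at -0.157 or less and -0.0832 or less. Those negative values follow in part from the centring, since deviations within a group of 3 libraries cancel out, and add no evidence for the pairing. Twins correlated at 0.700, 0.619 and 0.673 at stage 10.5 and at 0.578, 0.457 and 0.567 at stage 12.

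The members, lists and axis rule were chosen with earlier results of these data known. Genes are named by rule: those with the smallest p (5 in each direction per stage), members of the lists, those with the largest twin differences among genes averaging 5 RPKM or more, and the leading axis genes; LOC100498538-like.L, LOC779566.L and dkkx.L were added after their values were seen, as was the choice of which list members and pairs to describe. Gene lists were matched by symbol or human symbol, each copy counting as 1 member. On simulated data with known changes the fit recovered 75% of genes changed 2-fold at stage 10.5 and 79% at stage 12. It recovered 100% of those changed 4-fold at both stages, with 8 false calls at stage 10.5 and 7 at stage 12. The changes were placed only in genes above a minimum of mean reads, at the same fold in all left twins and with an assumed spread. Recovery in genes with few reads, or with a pair that differs as pair 2 did, was not tested. The alternatives were no block, another pseudocount, other filters and scalings, voom, the 6 twins alone, other axis genes and ends, and leaving out each number.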

Additional observations from a re-analysis of the deposited data

How the results depend on the processing

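With the number as a replicate block or without it, left minus right gave 0 calls at both stages, while dorsal minus ventral fell to 165 calls without the block at stage 10.5, against 362 with it, and to 587, against 898, at stage 12. Leaving out 1 number at a time gave 0 to 3 left-right calls at stage 10.5 (3 without number 2), 0 at stage 12, 0 to 3 between stages (3 without number 2), 56 to 300 dorsal-ventral calls at stage 10.5 and 210 to 650 at stage 12. The difference between left-right and dorsal-ventral distances then ranged from -0.0415 to -0.0227, with the smallest p that 4 numbers allow in each case, 0.125. Under other pseudocounts, filters and scalings it lay between -0.0426 and -0.0309, and measured as 1 minus Pearson r it was -0.0212, in each case at the same p of 0.0313. The axis gap of pair 2 moved to 41.9 at stage 10.5 and -70.3 at stage 12 with organizer and ventral BMP lists as the axis genes, and to 42.6 at stage 10.5 with the same-numbered dorsal and ventral half-embryos as ends. Leaving out a number put it at 36.1 to 36.5 and at -61.9 to -55.1. The cause was not tested for any of these moves. With a pseudocount of 0.1, tried after seeing the data, twin differences of genes near 0 grew, as for grip2.L in pair 1 of stage 10.5 (-6.75, against -4.99). Quantile and upper-quartile scaling turned the sign of list medians only where those were within 0.033 of 0. No called result turned its sign, but 2 values that were no call did: the mean axis gap was 2.94 without number 2, against -2.77, and the gap of pair 3 of stage 12 was -0.0733 with the organizer and ventral BMP lists, against 0.819. Low counts limit genes near 1 RPKM, and 3 numbers per stage limit all tests.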
